A study of Mus musculus with 6 samples.

Results

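MiR-22 was followed here through both arms of its precursor in 6 small RNA libraries of melan-alpha, a pigmented melanocyte line from mouse that grows without limit in culture. The members are the rows with a mouse name that reads miR-22 once end marks and the arm are removed, and 2 of the 1560 rows of the deposited table met this rule, 1 for each arm. MiR-22 was selected on the raw reads of its arms in all 6 libraries. Once scaled between libraries, those of the 3p arm lay apart between the groups and those of the 5p arm overlapped. The group values of its arms are therefore given as a description, with no test. The 3 MITF overexpression libraries came from cells to which mouse Mitf had been delivered by lentivirus, and the 3 control libraries from cells labelled as Mitf control. The labels do not say whether the control cells received any virus, whether either group was a clone, or how long after infection RNA was taken. All cells grew in RPMI medium with 10% fetal bovine serum. All libraries are labelled as extracellular vesicle RNA, although the extraction text describes collected and washed cells. Nothing in the labels says that the replicates were separate cultures, so p-values measure the spread between these libraries, which may be technical. The transcript of Mitf is not measured by a small RNA library.

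A microRNA precursor is a hairpin cut by Dicer into a duplex of 2 arms, of which one is usually loaded into Argonaute as the guide while the other, the passenger, is mostly degraded. In miR-22 the 3p arm is the usual guide. It is known as a repressor of Tet2, which oxidises methylated cytosine. It is abundant in heart and skeletal muscle and in blood plasma, and in mouse skin its overexpression ends the growth phase of the hair follicle early. The 3p sequence is conserved among mammals, so reads from mouse cells and from the bovine serum of the medium cannot be told apart for this row.

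The mature arms are shown first because the results compare them. Their seeds, bases 2 to 8, which pair with target transcripts, are in capitals, and the sequences are those of RefSeq on GRCm38.p6.
miR-22-3p: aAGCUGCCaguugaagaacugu
miR-22-5p: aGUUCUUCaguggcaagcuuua
The precursor is shown with both arms in capitals, the 5p arm first.
Mir22 hairpin: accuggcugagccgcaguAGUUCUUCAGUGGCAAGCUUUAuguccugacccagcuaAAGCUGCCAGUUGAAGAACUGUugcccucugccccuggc
The hairpin of 95 bases lies at chr11:75463716-75463810 on the plus strand, the 5p arm at chr11:75463734-75463755 and the 3p arm at chr11:75463772-75463793. GENCODE M21 places it inside an exon of the noncoding host gene Mir22hg, and an exon with the same bounds is annotated to the protein-coding gene Tlcd2. In the minimum free energy fold of the hairpin, 19 of the 22 bases of the 3p arm paired with the 5p arm. The search of 1738 mouse mature sequences found each seed in miR-22 alone.

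The 3p row of the deposited table holds the full mature sequence, and the 5p row a form that lacks the last base.
5p row of the table: aGTTCTTCagtggcaagcttt
No other end variant of miR-22 was listed under a mouse miR-22 name, so each arm rests on 1 sequence. Both rows passed the filter on low counts.

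MiR-22-3p was higher in the MITF overexpression libraries and the levels of miR-22-5p overlapped between the groups. The 3p arm had 3978.5, 1357 and 1168 reads in MITF overexpression replicates 1, 2 and 3, against 562, 1233 and 987 reads in control replicates 1, 2 and 3. Scaled to CPM, read counts on a common library total, with TMM factors, these were 9030, 4570 and 3390 CPM with MITF overexpression and 1824, 3191 and 2213 CPM in controls. All MITF overexpression libraries lay above all controls, with MITF overexpression replicate 3 closest to control replicate 2. Over all tested rows the groups were apart in this way, higher with MITF overexpression, in 25.2%. The mean was 5663 ± 2975 CPM with MITF overexpression and 2409 ± 704 CPM in controls (SD, n = 3 each), a 2.35-fold ratio. The fitted log2 fold change was 1.23 ± 0.36 (SE).

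MITF overexpression replicate 1 stood 1.98-fold above the next library of its group. Without it the mean of the group was 3980 CPM and the log2 fold change was 0.70. The size of the difference thus depended on that library, while MITF overexpression replicates 2 and 3 still lay above every control. For the 3p row, the authors' deposited table lists a fold change of 2.38. Among the 506 rows with a mouse name, miR-22-3p ranked 25, 33 and 41 by level in MITF overexpression replicates 1, 2 and 3, against 64, 43 and 54 in the controls.

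MiR-22-5p had 134, 82 and 86 reads in the MITF overexpression libraries, against 82, 131 and 161 reads in controls. These were 304, 276 and 250 CPM with MITF overexpression and 266, 339 and 361 CPM in controls. The groups overlapped, since control replicate 1 lay between MITF overexpression replicates 2 and 3. The mean was 277 ± 27.3 CPM with MITF overexpression and 322 ± 49.6 CPM in controls (SD, n = 3 each). The fitted log2 fold change was -0.22 ± 0.26 (SE), smaller than its error, and for the 5p row the authors' deposited table lists a fold change of 0.878. MITF overexpression replicate 1, which had the highest 3p level, was 1.10-fold above the next library of its group in the 5p arm.

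**Figure D1:**
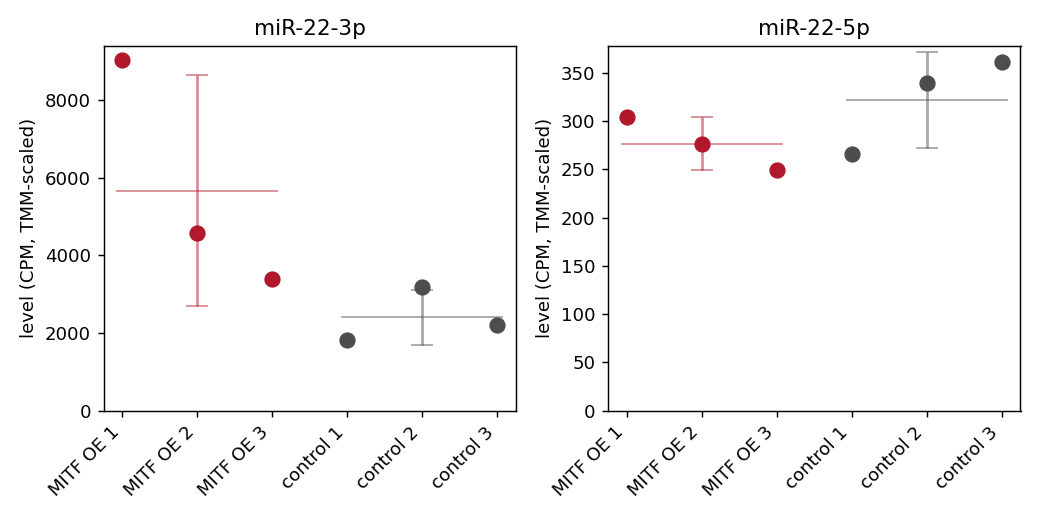
Level of miR-22-3p (left) and miR-22-5p (right) in each library, in CPM scaled with TMM factors. Points are libraries, and horizontal lines with bars are group means ± SD (n = 3). The 3p arm lies between 3390 and 9030 CPM with MITF overexpression, above the controls at 1824 to 3191 CPM, while the 5p arm of both groups falls between 250 and 361 CPM.

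The split of reads between the arms needs no scaling of libraries, since both arms are counted in the same library. The 5p arm made up 3.26%, 5.70% and 6.86% of miR-22 reads in the MITF overexpression libraries, against 12.7%, 9.60% and 14.0% in controls. Every MITF overexpression library lay below every control, as for 12.3% of the other 57 microRNAs whose arm ratio is compared further on. The exact binomial 95% intervals ran from 2.74% to 3.85%, from 4.56% to 7.02% and from 5.52% to 8.40% in MITF overexpression replicates 1, 2 and 3. In control replicates 1, 2 and 3 they ran from 10.3% to 15.6%, from 8.09% to 11.3% and from 12.1% to 16.2%. The intervals of MITF overexpression replicate 3 and control replicate 2 overlapped, and the others did not cross between the groups. They cover counting error only, and reads without molecular identifiers are not independent molecules.

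The 3p arm was the major arm in all 6 libraries. There were 29.7, 16.5 and 13.6 reads of the 3p arm per 5p read with MITF overexpression, against 6.85, 9.41 and 6.13 in controls. On the log2 scale the 5p/3p ratio averaged -4.23 ± 0.59 with MITF overexpression and -2.87 ± 0.32 in controls (SD, n = 3 each), a difference of -1.36. Without MITF overexpression replicate 1 the difference was -1.03. Summed over both arms, miR-22 stood at 5940 ± 3001 CPM with MITF overexpression and 2731 ± 733 CPM in controls.

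**Figure D2:**
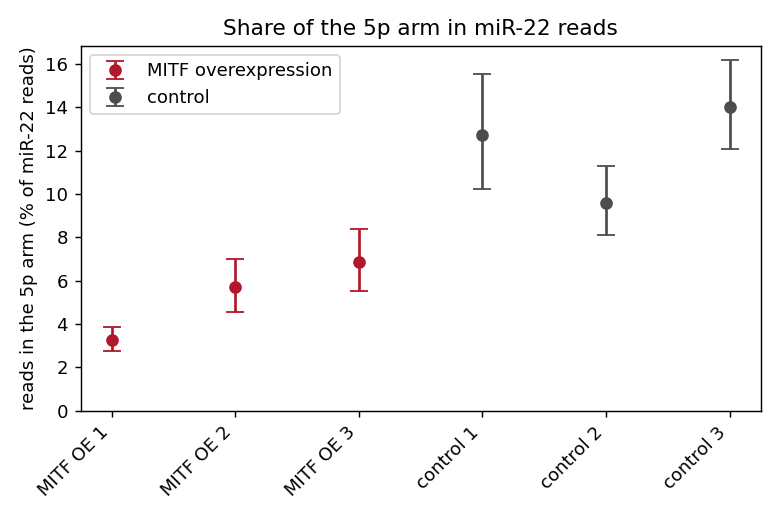
Reads of the 5p arm as a percentage of all miR-22 reads in each library. Points are libraries and bars are exact binomial 95% intervals, which cover counting error only. The share is 3.26% to 6.86% with MITF overexpression and 9.60% to 14.0% in controls.

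To see how usual such a shift was, the 5p/3p ratio was computed for every mouse microRNA with both arms past the filter on low counts, 58 in all. The ratio shifted downward in 29 of the 58, with a median shift of 0.00, and the median size of a shift in either direction was 0.53 on the log2 scale. MiR-22 had the seventh most negative shift. With miR-22 counted, 7 of the 58 had a shift at least as large in size. The arms had log2 ratios of opposite sign in 22 of the 58, so opposite signs were common. The groups did not overlap, with a lower ratio under MITF overexpression, in 7 of the 57 microRNAs other than miR-22, or 12.3%.

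Leaving aside miR-22, for which no test is given, the limma fit called 5 of the 57 other ratios, or 8.77%, of which 2 were higher and 3 were lower with MITF overexpression. These counts depended on single libraries. None of the other ratios was called without MITF overexpression replicate 2, without MITF overexpression replicate 3 or without control replicate 2. The count filter was rerun in each such fit, and these held 60, 60 and 62 ratios other than that of miR-22. Of these, 8, 8 and 10 had an unadjusted p below 0.05 by limma. Removing control replicate 1 left 1 call, a lower ratio, and removing control replicate 3 left 2 higher and 1 lower. Removing MITF overexpression replicate 1 gave 4 higher and 4 lower. An edgeR test of the interaction of arm and group called 3 lower ratios and none higher.

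The 4 most negative shifts were those of miR-1249, miR-187, miR-532 and miR-409, at -2.65, -2.61, -2.32 and -2.03. In miR-1249, miR-187 and miR-409 an arm had 0 reads in some libraries, so the 0.5 added to each count weighed on their shifts. Of the 4, miR-532 passed the limma test with an adjusted p of 0.0165. The 5p arm of miR-532, the major one, stood at 1146 CPM against 1961 CPM in controls, and its 3p arm at 74.6 CPM against 25.1 CPM. The 4 most positive shifts were those of miR-350, miR-301a, miR-145a and miR-3068, at 1.21, 1.19, 1.19 and 0.83, and none of the 4 passed, with adjusted p from 0.223 to 0.478. The other 4 ratios that passed, named here after their values were seen, were those of miR-93 and miR-140, which were lower with shifts of -1.40 and -1.12, and of miR-423 and miR-151, which were higher with shifts of 0.66 and 0.58.

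**Figure D3:**
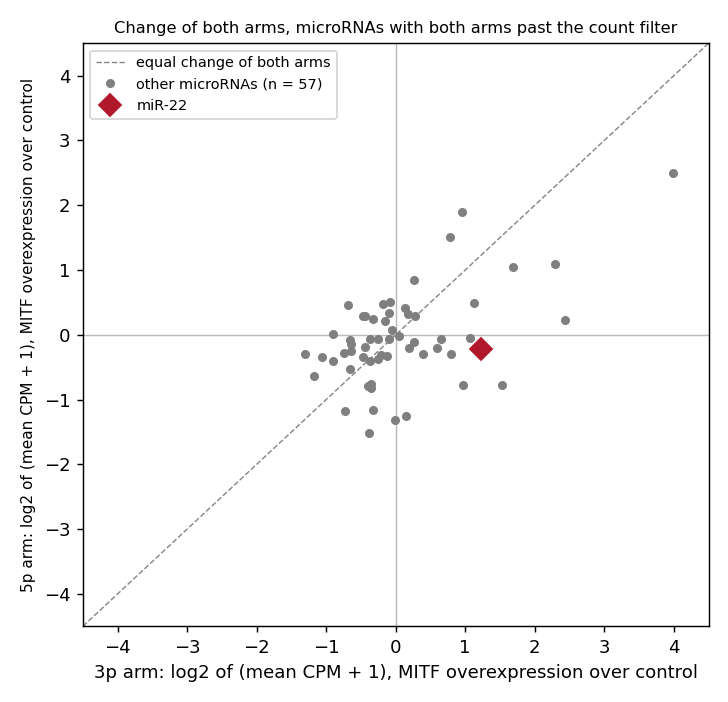
Log2 ratio of mean CPM plus 1, MITF overexpression over control, for the 3p arm (horizontal) and the 5p arm (vertical) of each microRNA with both arms past the count filter. Grey points are the other 57 microRNAs, the red diamond is miR-22, and the dashed line marks equal change of both arms. MiR-22 lies to the right of the line, at -0.22 for its 5p arm and 1.23 for its 3p arm.

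The microRNAs most like each arm were looked up, and they differed. MiR-22 was selected on its arms in the same libraries, so this is not a separate result. Pearson's r of log2(CPM + 1) over the 6 libraries was used as a measure of likeness, over 239 mouse-named tested rows with a mean of at least 50 CPM. All of these points share the same 6 libraries and their group difference, so r is a description only. The rows most like miR-22-3p were miR-199a-5p (r = 0.99), a microRNA of fibroblasts, miR-144-5p (r = 0.97) and miR-451a (r = 0.93), which come from one red blood cell transcript, and miR-142a-5p (r = 0.95), a microRNA of white blood cells. MiR-199a-5p had 453, 65.1 and 50.3 CPM with MITF overexpression against 14.1, 31.1 and 17.2 CPM in controls, with the same library on top as in miR-22-3p. Its reads were 199.7, 19.3 and 17.3 against 4.3, 12 and 7.7, so this r rests on that library and on low counts. The rows most like miR-22-5p were miR-24-3p (r = 0.84), miR-34a-5p (r = 0.83), a target of p53, a variant of mir-6240 (r = 0.78) and miR-23a-3p (r = 0.78). On the log2 scale these 4 differed by -0.43, -0.61, -1.21 and -0.44 between MITF overexpression and control, and the mir-6240 variant passed the test (adjusted p = 0.0260 by edgeR).

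The lists below were read against all 441 tested rows, of which 44 were higher, or 9.98%, and 23 lower, or 5.22%, by edgeR's quasi-likelihood test at an adjusted p of 0.05. Higher rows made up 65.7% of calls, against 79.2% with total-count scaling, which moved the median log2 fold change of all rows by 0.15, and 54.3% once the most abundant row had been removed. Removing MITF overexpression replicate 3 left no row called by edgeR. Of the 495 rows that then passed the filter, 135 had an unadjusted p below the threshold of 0.05. Removing MITF overexpression replicate 2 left 11 higher and 3 lower rows, removing control replicate 2 left 7 higher and 4 lower, and removing control replicate 3 left 41 higher and 8 lower. Over all lists 11 rows were higher and 2 lower. These counts were 3 and 0 after removal of MITF overexpression replicate 2, 0 and 0 after that of replicate 3, and 2 and 1 after that of control replicate 2. They were 11 and 1 after removal of either control replicate 1 or control replicate 3. The groups lay apart, lower with MITF overexpression, in 17.2% of tested rows. The median log2 fold change was 0.08 over all tested rows.

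Because miR-22-3p is abundant in plasma and identical among many mammals, microRNAs of blood cells, serum and liver were set beside it. 5 of 10 tested rows of this list rose, with a median log2 fold change of 1.54. Their summed level was 115627, 36691 and 28677 CPM in MITF overexpression replicates 1, 2 and 3, against 12737, 12345 and 19779 CPM in controls. The order of the MITF overexpression libraries was the same as for miR-22-3p, with replicate 1 highest. The order of the controls differed, since control replicate 2 was highest for miR-22-3p, at 3191 CPM, and lowest for the sum of the list. MiR-122-5p alone made up 102218 CPM of the sum in MITF overexpression replicate 1. In control replicates 1, 2 and 3 it made up 9835, 8784 and 16267 CPM, so the order of the sum was mostly its own. Other rows of the list varied in this order. MiR-144-3p had 172, 432 and 287 CPM in control replicates 1, 2 and 3, and miR-451a had 493, 722 and 859 CPM. Without replicate 1, 5 rows of the list were called, without replicate 2 or without control replicate 2 there were 2, and without replicate 3 none.

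MiR-122-5p, made almost wholly in liver, had 102218, 29904 and 22563 CPM with MITF overexpression against 9835, 8784 and 16267 CPM in controls (adjusted p = 0.0236). MiR-451a had 3647, 1798 and 1695 CPM against 493, 722 and 859 CPM (adjusted p = 0.0200). MiR-486b-5p, miR-144-3p and miR-142a-5p also rose, with log2 fold changes of 1.16, 1.69 and 1.53. MiR-192-5p, another liver microRNA, had 4085, 1044 and 1225 CPM with MITF overexpression against 1178, 929 and 982 CPM in controls, and its log2 fold change of 1.04 missed the threshold (adjusted p = 0.134). MiR-22-5p, at 250 to 304 CPM with MITF overexpression, overlapped with its controls. The part of blood, serum or liver RNA in the level of miR-22-3p was not tested. Among rows of the list too low to be tested, miR-142a-3p, miR-223-5p and miR-122-3p were at 0 in every control. Of these, miR-122-3p was above 0 in MITF overexpression replicate 1 only, with 12 reads. With MITF overexpression miR-142a-3p had 36, 7 and 23 reads and miR-223-5p had 6, 8 and 5. Fewer rows of any kind were above 0 in controls, at 513, 612 and 677 in replicates 1, 2 and 3. With MITF overexpression there were 992, 860 and 783 such rows, so a value of 0 in controls is not particular to this list.

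**Figure D4:**
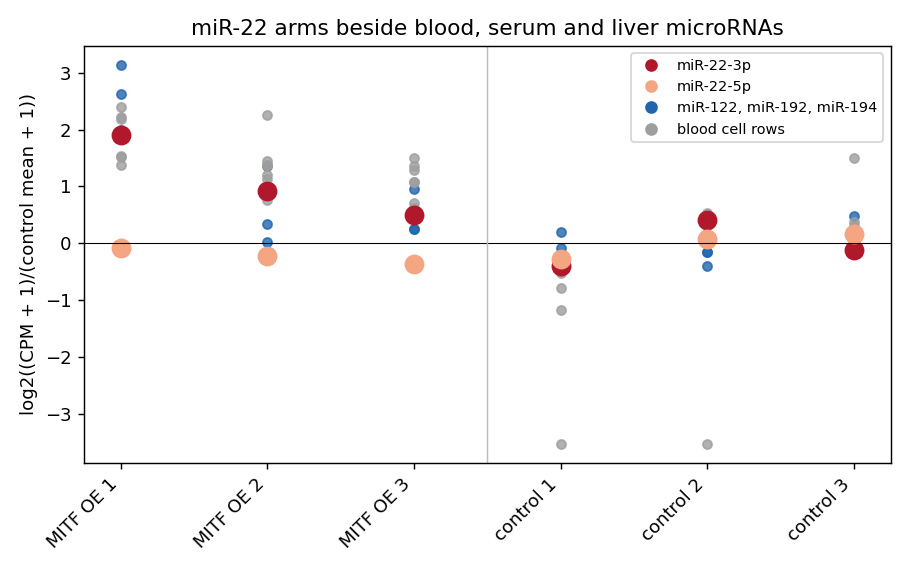
Log2 ratio of CPM plus 1 to the control mean plus 1 in each library, for both miR-22 arms and the 10 tested rows of the blood, serum and liver list. Blue points are liver microRNAs, grey points are blood cell rows and the horizontal line is the control mean. MiR-22-3p sits among the list in the MITF overexpression libraries, whereas miR-22-5p stays near or below the line.

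Among fibroblast and endothelial microRNAs, 3 of 9 tested rows rose, with a median log2 fold change of 0.96. They were miR-145a-5p, miR-214-3p and miR-199a-5p, with log2 fold changes of 1.89, 1.75 and 3.18. The count of 3 fell to 1 without MITF overexpression replicate 1 or replicate 2, to 0 without MITF overexpression replicate 3 or control replicate 2, and to 2 without control replicate 1 or control replicate 3. The 3 most abundant rows, miR-143-3p, miR-126a-3p and miR-199b-3p, were not called at log2 fold changes of 0.41, 1.13 and -0.09 (adjusted p = 0.155, 0.140 and 0.872). The summed level of the list was 18963, 8853 and 10492 CPM with MITF overexpression, against 8699, 7947 and 8390 CPM in controls. Here too MITF overexpression replicate 1 was highest, and its part in miR-22-3p was not tested.

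MiR-22 is enriched in muscle, so muscle microRNAs were set beside it, most of them too low to be tested. MiR-1a-3p, the most abundant microRNA of heart and skeletal muscle, had 18.2, 10.1 and 10.2 CPM with MITF overexpression against 19.5, 0 and 1171 CPM in controls. It was high in control replicate 3 alone. MiR-206-3p was also highest in that library, at 211 CPM. MiR-133a-3p was at 0 in every MITF overexpression library and had 0, 6.47 and 56.0 CPM in control replicates 1, 2 and 3. A form of miR-208b-3p, a heart and slow muscle microRNA, had 11.3, 20.2 and 0 CPM with MITF overexpression and 0 in every control. These levels rest on 5, 6 and 0 reads. Of 2 tested rows of the list, miR-486b-5p rose as given above, and miR-499-5p did not pass, with a log2 fold change of -0.27 and an adjusted p of 0.919. The summed level of the muscle list was 1909, 1888 and 1119 CPM with MITF overexpression, against 683, 819 and 2210 CPM in controls. MiR-486b-5p, which is also on the blood, serum and liver list, made up most of the sum with MITF overexpression. Its level was 1834, 1834 and 1086 CPM there, against 622, 766 and 734 CPM in controls. The part of the muscle list in miR-22-3p was not tested.

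Of keratinocyte and hair follicle microRNAs, 0 of 4 tested rows passed edgeR's test, 1 had an unadjusted p under 0.05, and DESeq2 called 1, which was lower. The median log2 fold change was -0.04. The fitted log2 values were -0.53 for miR-31-5p, 1.11 for miR-200b-3p and 0.44 for miR-205-5p (adjusted p = 0.0889, 0.620 and 0.859). The summed level was 1954, 1717 and 1411 CPM with MITF overexpression, against 2490, 2324 and 2058 CPM in controls. The melanocyte microRNA miR-211-5p was present in all libraries, at 4190, 5183 and 4301 CPM with MITF overexpression against 1892, 1866 and 2621 CPM in controls. Of 3 tested rows, all rose, with a median log2 fold change of 1.90. They were both arms of miR-211 and miR-204-3p, at 1.10, 2.29 and 1.90. None of the 3 was called without MITF overexpression replicate 2, without MITF overexpression replicate 3 or without control replicate 2.

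Of 8 tested rows of microRNAs reported to repress the Tet enzymes, 1 fell, with a median log2 fold change of -0.39. It was miR-101b-3p, at -1.05 with an adjusted p of 0.0348. With total-count scaling 0 rows of the list were lower and 1 was higher. Of the 6 fits with 1 library left out, the one without MITF overexpression replicate 1 called 1 row of the list, which was lower, and the others 0. Its 3 most abundant rows were not called, with miR-29a-3p at -0.61, miR-26a-5p at -0.12 and miR-26b-5p at -0.48 (adjusted p = 0.0690, 0.760 and 0.134).

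Of 21 tested rows of microRNAs that, like miR-22, come from a noncoding host transcript, 2 rose and 1 fell, with a median log2 fold change of -0.06. Those that rose were miR-142a-5p and miR-145a-5p, as given above. With 1 library left out, 0 to 3 rows were higher and 0 to 2 lower, and both counts were 0 without MITF overexpression replicate 3. MiR-20a-5p, of a cluster tied to cell growth, fell to 3216 ± 464 CPM with MITF overexpression, against 7188 ± 2546 CPM in controls (SD, n = 3 each; adjusted p = 0.0221 by edgeR). Let-7c-5p stood at -0.12 and miR-99a-5p at 0.15 on the log2 scale, and neither was called (adjusted p = 0.760 and 0.660). A row named as a variant of miR-100-5p had the same values as miR-99a-5p, so reads may be split between them. The 4 most negative and 4 most positive of the shifts in arm ratio included 1 microRNA of this list, miR-145a.

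Further rows of the table held a sequence close to miR-22-3p under another name. They are shown with the letters that differ from the Mir22 hairpin in capitals.
row named after opossum miR-22-3p: aagctgccagCtgaagaactgC
row named after mouse miR-3966: agctgccagCtgaagaactgtt
Counted from base 1 of mouse miR-22-3p, the first differed by T11C and T22C, and the second, which starts at base 2, by T11C. Both were above 0 in MITF overexpression replicate 1 only, with 36 and 3.5 reads, and they were 0 in the other 5 libraries. The 3.5 reads and the 3978.5 reads of miR-22-3p in that library are not whole, so some reads were split between rows. Adding both rows to the 3p arm left the difference in log2 5p/3p ratio at -1.36.

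MITF binds DNA at the letters CACGTG and CATGTG, so both were searched on both strands in the 300 bases around the annotated start of Mir22hg in RefSeq on GRCm38.p6. Neither was found in that window. CACGTG occurred in 7.15% and CATGTG in 14.2% of 32851 promoters of the same length, and the absence of these letters says nothing of binding elsewhere.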

How the data were processed

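Small RNA reads of 6 libraries were tabulated by the authors in named rows. Some rows under different names, such as miR-99a-5p and the miR-100-5p variant, had the same values in every library. The rows counted here may therefore not all be separate sequences. The deposited raw columns hold estimated counts, which need not be whole because reads are split among rows, and the deposited normalized signal is that count divided by 1 factor per library, as checked on the file. The authors' fold change is the ratio of group means of the normalized signal, and the log2 column is its log2, per the file headers. The genome build was mm9, per the submitters' processing notes, and neither aligner nor counter is named there or in the labels. RefSeq positions are on GRCm38.p6, and nothing was converted. 4 empty lines were not used.

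The libraries held 448969, 279142 and 306062 tabulated reads with MITF overexpression and 342941, 382350 and 475977 in controls. Rounded estimated counts entered the quasi-likelihood test of edgeR 4.0.16, run under R 4.3.3 (TMM, filterByExpr at a minimum count of 10, group as the only term), with Benjamini-Hochberg adjustment over 441 rows at 0.05. CPM use the same factors. Arm ratios, log2 of 5p over 3p reads with 0.5 added to each, were tested with limma 3.58.1 (trend) over 58 microRNAs whose arms both passed the filter, and calls were counted over the 57 other than miR-22. DESeq2 1.42.0 was an alternative, and RNAfold 2.7.2 gave the fold. Both fits were run on simulated data with changes larger than those of miR-22, which does not show how they do with smaller ones. Named rows are the members, called rows and up to 3 abundant tested rows of each list, the 4 rows most like each arm and the 4 largest arm shifts in each direction. List names were matched exactly. The members, lists and tests were chosen with earlier results of these data known. A further list of microRNAs is not reported here.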

Additional observations from a re-analysis of the deposited data

Results flagged for a closer look

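Outside the rows named miR-22, signal close to miR-22-3p appeared in 1 library where every control had 0 reads. In MITF overexpression replicate 1, 36 reads were listed for the row named after opossum miR-22-3p, and the row named after mouse miR-3966 had 3.5 reads there. Together they made up 0.983% of miR-22-3p and related reads in that library, while a count of 0 allows a share of up to 0.221% and 0.257% in MITF overexpression replicates 2 and 3, and of up to 0.534%, 0.243% and 0.304% in control replicates 1, 2 and 3. These limits cover counting error only. Rows of any kind above 0 were most numerous in MITF overexpression replicate 1, at 992, against 513 to 860 in the other libraries. MITF overexpression replicate 1 was also the library with the highest miR-22-3p and miR-122-5p, and a link between these facts was not tested.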

How the results depend on the processing

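Under the alternatives run, the log2 fold change of miR-22-3p stayed positive, that of miR-22-5p negative and the difference in log2 5p/3p ratio negative. Each moved by less than the SD of single libraries within groups, which was 0.59, 0.19 and 0.47 on the log2 scale. This limit is loose, since miR-22-3p met it while falling from 1.23 to 0.70 without MITF overexpression replicate 1. With 1 library left out the 3p arm, the 5p arm and the ratio difference ran from 0.70 to 1.49, from -0.37 to -0.08 and from -1.59 to -1.03. With total-count scaling the arms were at 1.34 and -0.08. Counts of calls moved more. With 1 library left out, higher rows ran from 0 to 41 and lower rows from 0 to 23, list members from 0 to 11 higher and 0 to 3 lower, and arm ratios other than that of miR-22 from 0 to 4 in either direction. The DESeq2 Wald test called 67 higher and 43 lower rows, with 5 lower list members. Leaving out the most abundant row gave 37 lower rows and 5 lower list members. No filter on low counts gave 5 lower list members, total-count scaling gave 1, and mouse-named rows alone gave 26 higher rows and 4 lower list members. The edgeR interaction test gave 0 higher arm ratios, with 10 ratios at an unadjusted p under 0.05. Same-numbered libraries did not deviate together (correlations of -0.05, 0.03 and -0.03). The values thus give no sign of pairing, but cannot show whether such libraries were prepared together. With the replicate block, 1 row was higher and 1 lower, with 0 list members higher and 0 lower and 128 rows at an unadjusted p under 0.05, the miR-22 arms were at 1.13 and -0.21, the ratio difference was -1.36, and 2 arm ratios were higher and 2 lower. The cause of these moves was not tested. Each miR-22 arm was 1 row, so taking the most abundant row changed nothing by construction. Depth limits the 5p arm most, at 82 to 161 reads.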
